A study of Rana omeimontis with 6 samples.

Results

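The pentose phosphate pathway and the cytosolic enzymes that supply NADPH were examined in the livers of tadpoles of the frog Rana omeimontis. The members were 9 proteins, and a row of the matrix belonged to one of them when the first entry of its description contained that protein's name. By this rule a row described as transketolase-like protein 1 was counted under transketolase. The rule gave 18 of 121726 rows, of which 11 reached 1 FPKM in at least 3 libraries and were kept. FPKM is the fragment number of a transcript scaled by its length and by the mapped fragments of the library. Each row is a transcript cluster, and a gene can be split over several.

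The tested stage was represented by 3 liver libraries taken after ontogenetic fat accumulation, and the comparison stage by 3 liver libraries taken before it. The labels give both stages the same tissue and collection area, and they give no treatment, genotype or age. They do not say whether each library came from 1 animal or a pool, so p-values measure the spread between these libraries, which may be technical. The series asks how fat laid down in the liver relates to growth and energy metabolism of the tadpole.

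The pentose phosphate pathway starts from glucose-6-phosphate. Its oxidative branch passes electrons to NADP and so makes NADPH, while its non-oxidative branch moves carbon between ribose phosphates and the sugar phosphates of glycolysis. Liver cells spend NADPH on building fatty acids and sterols and on keeping glutathione and thioredoxin reduced. Cytosolic malic enzyme and cytosolic NADP-dependent isocitrate dehydrogenase make NADPH outside the pathway.

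The libraries held much RNA of another organ. Rows named for digestive enzymes of the exocrine pancreas (36 kept rows, led by trypsins) took 25.6%, 26.0% and 33.4% of the summed FPKM after fat accumulation, against 29.4%, 33.4% and 21.5% before it. The shares overlapped between the stages (exact permutation test, two-sided, n = 3 each, p = 1). Single pancreas rows moved unequally, with 4 higher and 4 lower after (limma, adjusted p under 0.05). Over all rows tested 4.64% were higher and 4.0% lower. Rows named for 7 hepatocyte proteins (9 kept rows) took 0.840%, 0.755% and 0.740% after and 0.483%, 0.498% and 0.604% before. Their summed level was 1.42 times as high after as before. The sums did not overlap (two-sided exact permutation test, n = 3 each, p = 0.1, the lowest value possible with 3 libraries a stage). The rows moved unequally, with 2 higher and 0 lower (limma, adjusted p under 0.05) and a median log2 difference of 0.459. The higher ones were serum albumin (3.54) and a minor apolipoprotein A-I row (3.59). Serotransferrin was lower after (-0.299), with overlapping stages. The main apolipoprotein A-I row led the sum, at 4371 FPKM after and 2674 before, also with overlap. Equal hepatocyte marker sums, used below, chiefly follow the rows of highest level. Red blood cell rows (4) took 0.825% ± 0.0321 after and 0.621% ± 0.0924 before (SD, n = 3 each). Their shares did not overlap between the stages either (two-sided exact permutation test, n = 3 each, p = 0.1), with a ratio of the means of 1.33. No row was named for adiponectin, leptin or perilipin-1, the adipocyte markers. Leukocyte rows (13, nearly all of their level from 1 lysozyme row) summed to 6176, 5043 and 3065 FPKM after and 7836, 8619 and 4144 before, 0.693 times as high after, with overlapping stages (two-sided exact permutation test, n = 3 each, p = 0.3). A change in the number of cells of a type and a change in RNA per cell cannot be told apart in such bulk samples. The part of red blood cells and leukocytes in the results below was not tested. Values with equal hepatocyte marker sums are given for the member proteins. Values with totals taken without the pancreas rows are given for the member rows past the threshold. The branch sums, the sum of NADPH-making enzymes and the lists of neighbouring proteins are given at the deposited scaling only. Summed FPKM lay between 1358665 and 1442121 per library.

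**Figure D1:**
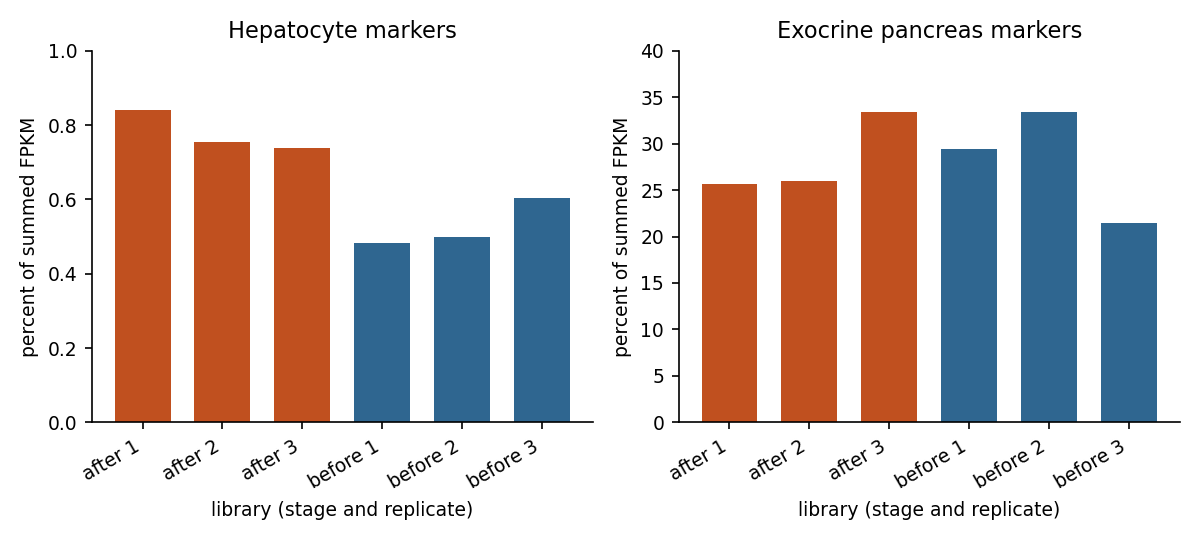
Share of the summed FPKM (percent, vertical axes of different height) taken by hepatocyte marker rows (left) and exocrine pancreas marker rows (right), with 1 bar per library, after fat accumulation in orange and before it in blue. The hepatocyte shares do not overlap between the stages, and the pancreas shares do.

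After fat accumulation 3 of the 11 kept rows had risen and none had fallen (limma, Benjamini-Hochberg adjusted p under 0.05 over all 40548 rows). They were cytosolic NADP-dependent isocitrate dehydrogenase, at 45.7 ± 6.29 FPKM after and 14.6 ± 4.53 before, a transketolase-like protein, at 101 ± 17.7 after and 47.6 ± 5.39 before, and ribose-5-phosphate isomerase, at 3.55 ± 0.734 after and 0.393 ± 0.0551 before (SD, n = 3 each). Of all rows tested, 8.64% passed in either direction, 4.64% as higher and 4.0% as lower after. With equal hepatocyte marker sums, a scaling chosen after seeing the data, 1233 rows were higher and 5948 lower, against 1882 and 1620. Before adjustment 5 member rows were higher and 1 was lower at p under 0.05 in the same limma fit. Of all 40548 rows tested, 10788 were under that p in either direction. The same number stands beside the counts before adjustment in the lists below. The isomerase row entered the test through its libraries after fat accumulation alone, so it had to differ. Without it 2 of 10 rows passed. With totals taken without the pancreas rows, chosen after seeing the data, all 3 rows passed, at log2 differences of 1.66 for the dehydrogenase, 1.11 for the transketolase-like protein and 1.73 for the isomerase (limma, adjusted p = 0.0170, 0.0269 and 0.0133). That scaling changes 1 factor per library and cannot remove member transcripts that come from pancreas cells, whose part was not tested. Over the 11 rows the median difference, after minus before in log2 units of FPKM + 1, was 0.59, beside -0.08 over all rows tested. The stages did not overlap in 7 of the 11 rows, 6 higher and 1 lower after. The isomerase row, which had to differ, is among these 6. It is also in the median and in the count of higher rows before adjustment. Of all rows tested, 32.5% did not overlap, 15.7% higher and 16.8% lower.

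**Figure D2:**
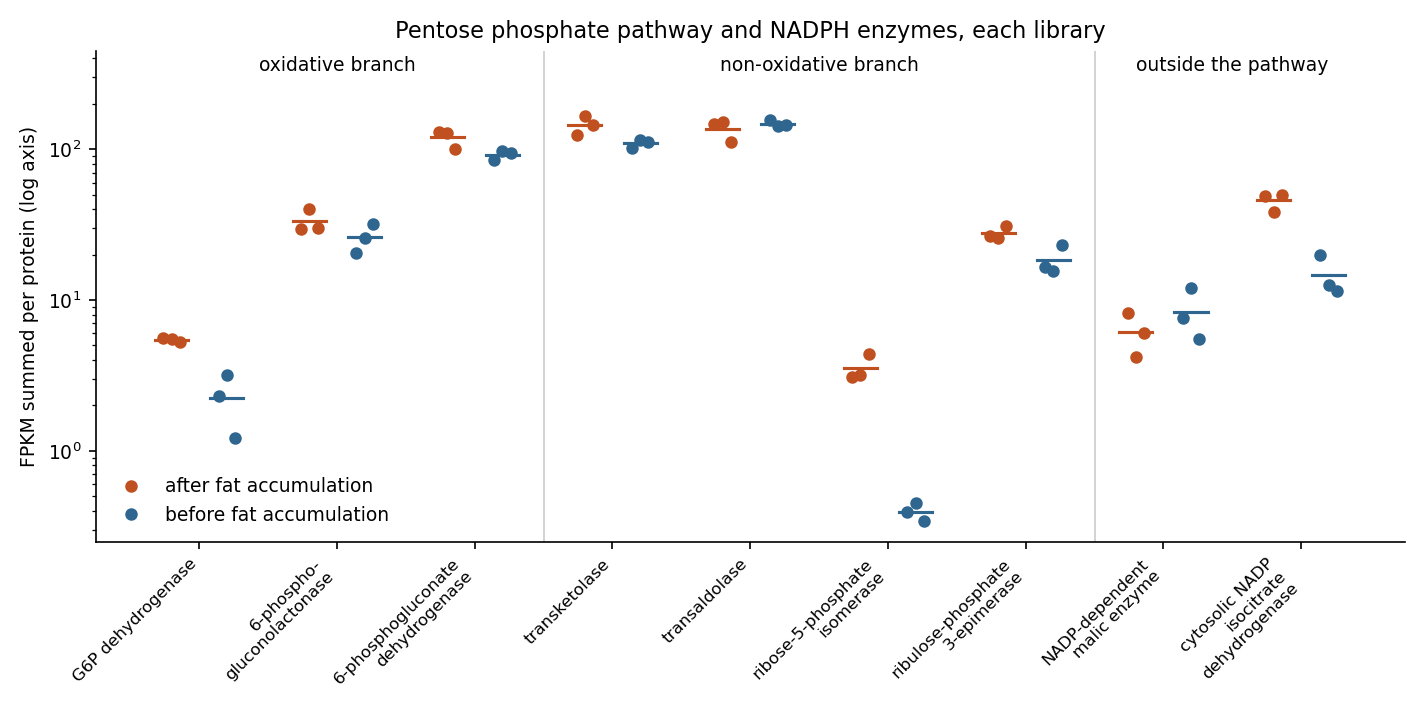
FPKM summed over the kept rows of each protein (vertical log axis), with 1 point per library and a bar at the mean of each stage, after fat accumulation in orange to the left of before in blue. Isocitrate dehydrogenase, ribose-5-phosphate isomerase and glucose-6-phosphate dehydrogenase show the widest gaps between the stages. For the isomerase the filter had fixed that there would be a gap.

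Summed per protein, the levels covered a wide range within the pathway. The transketolase sum joins a row described as transketolase-like protein 1 with a row described as transketolase. The like row was at 101 FPKM after and 47.6 before, and the transketolase row at 44.8 and 61.7. Neither row alone reached the mean of 6-phosphogluconate dehydrogenase in either stage. After fat accumulation the transketolase sum led at 145 ± 21.3 FPKM, followed by transaldolase at 137 ± 21.7 and 6-phosphogluconate dehydrogenase at 120 ± 16.9. The libraries of neighbours among these 3 overlapped. Before it, transaldolase led at 148 ± 7.16, above transketolase at 109 ± 6.95 and 6-phosphogluconate dehydrogenase at 91.8 ± 6.34, without overlap between neighbours. Isocitrate dehydrogenase came next after fat accumulation, its libraries overlapping those of 6-phosphogluconolactonase. Before it, isocitrate dehydrogenase stood below 6-phosphogluconolactonase and the epimerase, and its libraries overlapped those of the epimerase above and of malic enzyme below. The lowest mean in both stages was that of ribose-5-phosphate isomerase, and the next lowest that of glucose-6-phosphate 1-dehydrogenase. After fat accumulation the libraries of glucose-6-phosphate 1-dehydrogenase overlapped those of malic enzyme. By branch, the oxidative enzymes summed to 166, 175 and 136 FPKM after and 108, 126 and 127 before, and the non-oxidative ones to 301, 347 and 293 after and 274, 273 and 281 before. The ratios of the means were 1.32 and 1.14, both below the 1.42 of the summed hepatocyte markers. The branch sums were not computed at equal hepatocyte marker sums. All these FPKM values are levels per transcript length, not activities.

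The oxidative branch has 3 enzymes, of which none passed the threshold as a sum. Glucose-6-phosphate 1-dehydrogenase catalyses the first and committed step. Its 2 rows (Cluster-8914.43047 and Cluster-8914.43046), both described by the same frog protein, summed to 5.61, 5.49 and 5.28 FPKM after and to 2.30, 3.20 and 1.21 before. All 3 libraries after fat accumulation lay above all 3 before. Their sums lay close together, although the single rows spread more widely. The ratio of the means was 2.44 and the log2 difference 1.05 ± 0.292 (SE, 95% confidence interval 0.35 to 1.74, limma, adjusted p = 0.0746), and that difference was 0.65 with equal hepatocyte marker sums (adjusted p = 0.213). In the row of higher level the 3 libraries after fat accumulation had 2.77, 3.19 and 4.16 FPKM, against 2.06, 1.54 and 0.96 before (0.81, limma, adjusted p = 0.122). The other row had 2.84, 2.30 and 1.12 after and 0.24, 1.66 and 0.25 before, with overlapping stages (0.90, limma, adjusted p = 0.221). From after replicate 1 to after replicate 3 the first row went up while the other went down. At this level, and with an unknown number of fragments behind each value, single rows are the least precise.

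6-Phosphogluconolactonase, which opens the lactone made by the first enzyme, had 29.7, 40.2 and 30.2 FPKM after and 20.6, 25.8 and 32.1 before. Its stages overlapped, and the log2 difference was 0.35 ± 0.233 (SE, 95% confidence interval -0.21 to 0.90, limma, adjusted p = 0.401). 6-Phosphogluconate dehydrogenase, the second NADPH-making step of the pathway (Cluster-8914.33764), had 131, 129 and 101 FPKM after and 84.7, 96.7 and 94.1 before. Its stages did not overlap, although after replicate 3 lay close to the libraries before fat accumulation. The log2 difference was 0.38 ± 0.170 (SE, 95% confidence interval -0.03 to 0.78, limma, adjusted p = 0.214). The ratios of the means, 1.28 for the lactonase and 1.31 for this dehydrogenase, stand beside 1.42 for the summed hepatocyte markers. With each library rescaled to equal hepatocyte marker sums both differences turned negative, at -0.15 and -0.13.

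The non-oxidative branch has 4 enzymes, and its kept rows moved unevenly. Transketolase, which transfers 2-carbon units between sugar phosphates and needs thiamine diphosphate, was represented by 2 kept rows with opposite differences. The row described as transketolase-like protein 1 (Cluster-8914.33692), named in mammals as a relative of transketolase, had 82.5, 118 and 102 FPKM after and 49.8, 51.6 and 41.5 before. All libraries after fat accumulation were higher. Its log2 difference was 1.05 ± 0.195 (SE, limma, adjusted p = 0.0259). The row described as transketolase (Cluster-8914.38772) had 41.5, 48.7 and 44.3 FPKM after and 51.7, 63.0 and 70.4 before. All libraries after fat accumulation were lower, with a log2 difference of -0.44 ± 0.183 that did not pass (SE, 95% confidence interval -0.88 to -0.01, limma, adjusted p = 0.180).

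Within a library the FPKM of the transketolase-like row was 1.99, 2.42 and 2.29 times that of the transketolase row after fat accumulation, against 0.963, 0.819 and 0.589 times before it. The like protein held 69.0% ± 2.17 of the transketolase sum after and 43.7% ± 6.09 before (SD, n = 3 each). This ratio was formed after the values were seen, and it does not depend on how a library is scaled. It shows unequal change of the 2 rows, not which of them was constant. The sum of both rows had 124, 166 and 146 FPKM after and 101, 115 and 112 before, with a log2 difference of 0.40 ± 0.167 (SE, limma, adjusted p = 0.186). Reads of close relatives can be shared between such rows, so the split between them is uncertain. The call of the like protein held in 1 of 6 fits with a library left out, the fit without after replicate 1. In the other fits its adjusted p was 0.0614 to 0.0946, with the highest values without after replicate 2 or after replicate 3, and with equal hepatocyte marker sums the log2 difference was 0.55 (adjusted p = 0.172).

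**Figure D3:**
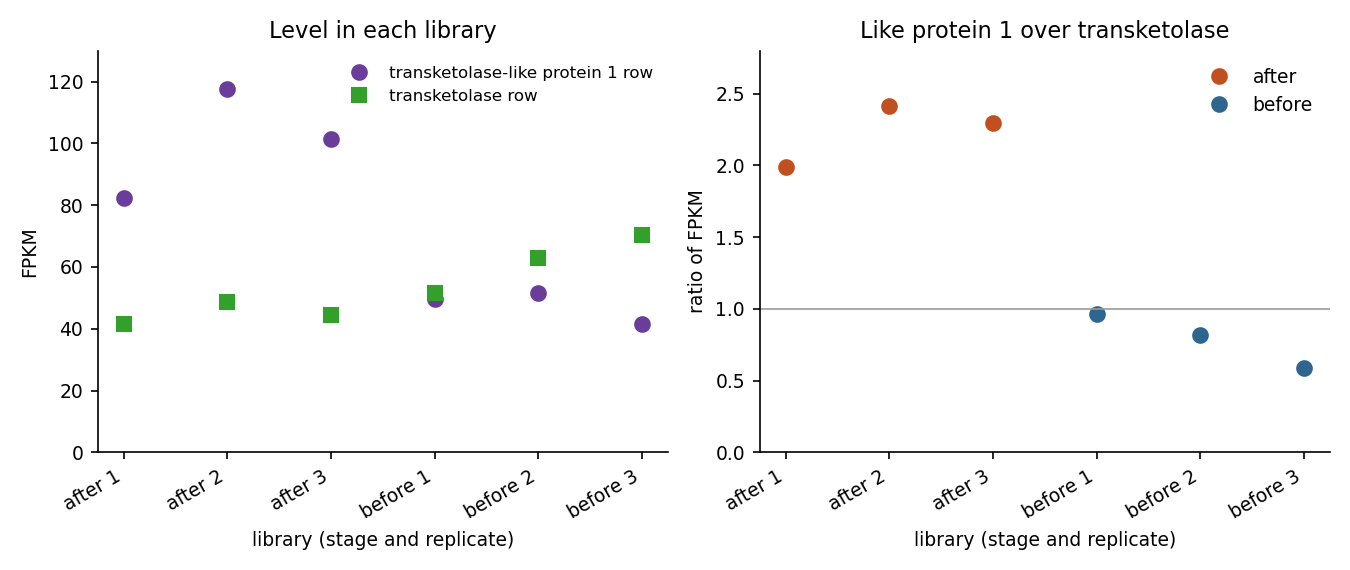
Left, FPKM (vertical axis) of the transketolase-like protein 1 row and the transketolase row in each library. Right, the ratio of the 2 rows within each library, which lies between 1.99 and 2.42 after and between 0.589 and 0.963 before fat accumulation, with a line at equal levels.

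Ribose-5-phosphate isomerase, which interconverts ribulose-5-phosphate and ribose-5-phosphate, the sugar of nucleotides, had 3.09, 3.17 and 4.40 FPKM after and 0.39, 0.45 and 0.34 before (Cluster-8914.42234). The ratio of the means was 9.03, the widest of the 9 proteins, on levels under 1 FPKM in every library before fat accumulation. The row had passed the filter through its libraries after fat accumulation alone. Its direction and the gap between its stages were thereby fixed, so the p-values that follow cannot decide whether it rose. The log2 difference was 1.70 ± 0.245 (SE, limma, adjusted p = 0.0141), and 1.44 with equal hepatocyte marker sums (adjusted p = 0.0166). The adjusted p rose to 0.0554 without after replicate 2, 0.0583 without after replicate 3 and 0.0562 without before replicate 1. A second row of this protein, below the filter, was listed at 0.25, 1.36 and 0 FPKM after and at 0 in all 3 libraries before.

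Ribulose-phosphate 3-epimerase, which makes xylulose-5-phosphate, a substrate of transketolase, had 26.8, 25.9 and 31.1 FPKM after and 16.5, 15.6 and 23.0 before. Its stages did not overlap, and before replicate 3 was the nearest to the libraries after fat accumulation. The log2 difference was 0.59 ± 0.214 (SE, 95% confidence interval 0.08 to 1.10, limma, adjusted p = 0.135), and 0.11 with equal hepatocyte marker sums (adjusted p = 0.726). Transaldolase, which transfers 3-carbon units, had 147, 151 and 112 FPKM after and 156, 142 and 146 before, in a row described by a bullfrog protein (Cluster-8914.33778). After replicate 3 was the lowest of the 6, and the stages overlapped. The log2 difference was -0.13 ± 0.171 (SE, 95% confidence interval -0.53 to 0.28, limma, adjusted p = 0.690), and it was 0.012 without after replicate 3. With equal hepatocyte marker sums it was -0.63 (limma, adjusted p = 0.0525). Transaldolase made up 26.0% ± 2.62 of the summed FPKM of all kept members after and 35.3% ± 2.43 before (SD, n = 3 each).

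**Figure D4:**
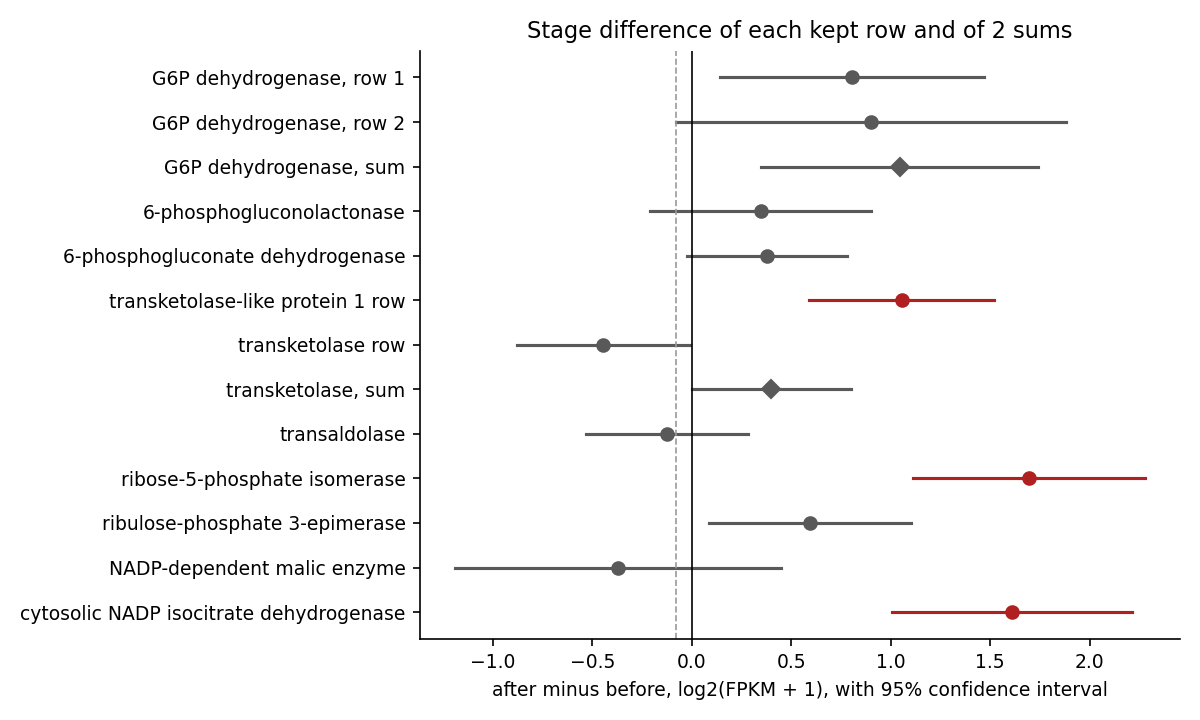
Difference between the stages (horizontal axis, log2 units of FPKM + 1, after minus before) for the 11 kept rows (circles) and the 2 proteins with several rows (diamonds, summed), with 95% confidence intervals. Red marks an adjusted p under 0.05, and the dashed line is the median over all rows tested, -0.08.

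Outside the pathway, cytosolic NADP-dependent isocitrate dehydrogenase turns isocitrate into 2-oxoglutarate and makes NADPH. Its row (Cluster-8914.34891) had 48.8, 38.5 and 49.9 FPKM after and 19.8, 12.6 and 11.4 before. The lowest library after fat accumulation was above the highest before it. The ratio of the means was 3.13 and the log2 difference 1.61 ± 0.253 (SE, limma, adjusted p = 0.0176). With equal hepatocyte marker sums it still passed, at a log2 difference of 1.12 (limma, adjusted p = 0.0444). The adjusted p rose to 0.0512, 0.0555 and 0.0741 without after replicates 1, 2 and 3, and to 0.0565 without before replicate 2. The mitochondrial NADP-dependent form, from a neighbouring gene list, had 185, 225 and 123 FPKM after and 105, 182 and 167 before (0.22, limma, adjusted p = 0.686). The ratio of the cytosolic to the mitochondrial form overlapped between the stages, at 0.171 to 0.407 after and 0.0685 to 0.188 before. That ratio was also formed after the values were seen.

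NADP-dependent malic enzyme, which turns malate into pyruvate with NADPH as a product, had 8.15, 4.17 and 6.07 FPKM after and 7.57, 11.99 and 5.51 before. The stages overlapped, with the highest value in before replicate 2. The log2 difference was -0.37 ± 0.344 (SE, 95% confidence interval -1.19 to 0.45, limma, adjusted p = 0.548), and -0.82 with equal hepatocyte marker sums (adjusted p = 0.159). A row for the mitochondrial form missed the filter, with 0.88, 0.81 and 0.85 FPKM after and 0.72, 1.0 and 1.11 before. Another malic enzyme row below the filter was listed at 4.17 FPKM in after replicate 2 and at 0 in the other libraries.

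The 4 proteins that make NADPH directly are glucose-6-phosphate dehydrogenase, 6-phosphogluconate dehydrogenase, malic enzyme and isocitrate dehydrogenase. Together they summed to 194, 177 and 162 FPKM after and to 114, 124 and 112 before. The ratio of the means of this sum was 1.52, beside 1.42 for the summed hepatocyte markers. This sum was not computed at equal hepatocyte marker sums. 6-Phosphogluconate dehydrogenase was the largest part, at 67.6% ± 5.31 after and 78.5% ± 4.95 before (SD, n = 3 each). Isocitrate dehydrogenase made up 25.9% ± 4.58 of that sum after and 12.5% ± 4.14 before, without overlap. Malic enzyme made up 3.44% ± 0.966 after and 7.05% ± 2.39 before, and glucose-6-phosphate dehydrogenase 3.08% ± 0.180 after and 1.89% ± 0.754 before. These shares describe transcript levels, and they are given without a test.

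**Figure D5:**
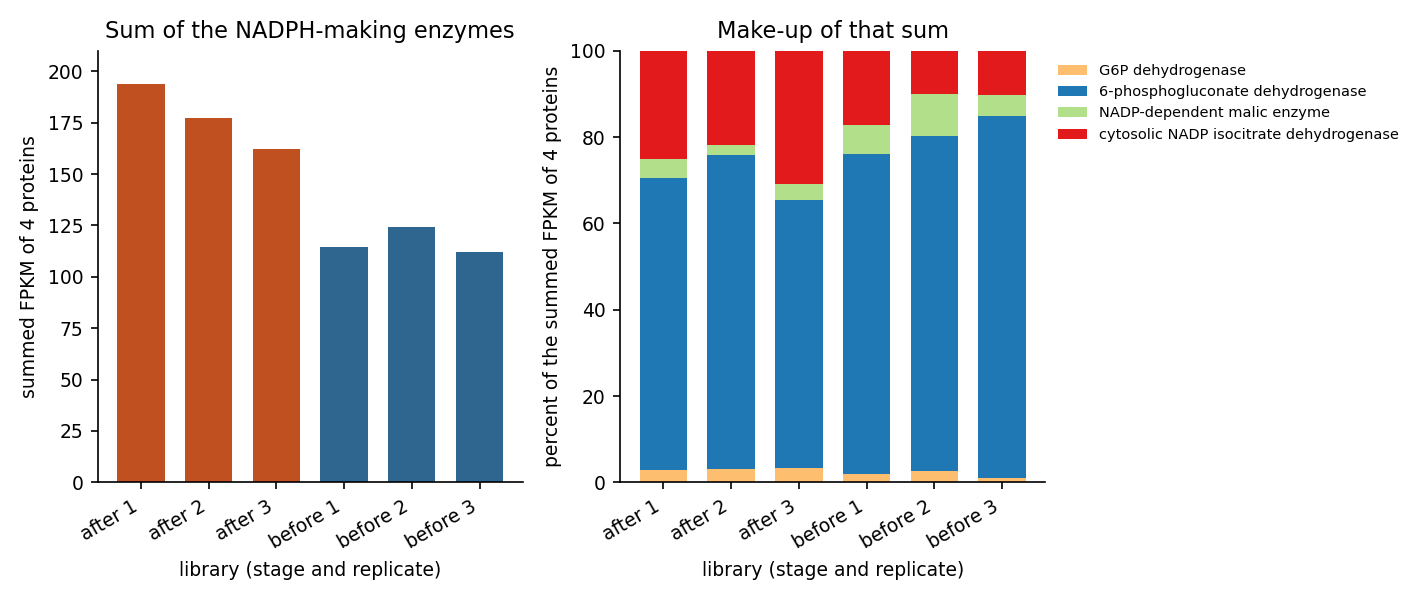
Left, summed FPKM of the 4 NADPH-making proteins in each library, after fat accumulation in orange and before it in blue. Right, the percent of that sum held by each protein, in which isocitrate dehydrogenase takes 21.7% to 30.8% after and 10.1% to 17.3% before.

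The remaining 7 member rows stayed below the filter. Beside those already given, they were 2 further transketolase rows at up to 0.43 FPKM, described by a mouse and a fish protein, and 2 further transaldolase rows at up to 0.93. One of the transaldolase rows was described by a protein of Eimeria tenella, a single-celled parasite, and lay at 0.10, 0.84 and 0.93 FPKM after and 0.52, 0.10 and 0 before.

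Enzymes that feed carbon to the NADP-dependent steps were read from a list of citrate and pyruvate shuttle proteins. Of its kept rows 3 of 8 rose and none fell (limma, adjusted p under 0.05), beside 4.64% higher and 4.0% lower over all rows tested. Before adjustment 4 were higher and 0 lower. ATP citrate lyase, which releases acetyl-CoA from citrate in the cytosol, had 26.1, 32.2 and 43.7 FPKM after and 2.43, 2.74 and 4.05 before (3.09, limma, adjusted p = 0.00418). The mitochondrial 2-oxoglutarate/malate carrier had 77.9, 83.3 and 87.8 FPKM after and 41.0, 35.3 and 44.4 before (1.03, limma, adjusted p = 0.0185). Cytosolic malate dehydrogenase, which makes the substrate of malic enzyme, had 283, 298 and 292 FPKM after and 159, 201 and 159 before (0.75, limma, adjusted p = 0.0327). In each of these 3 rows all libraries after fat accumulation were higher. The median log2 difference of the list was 0.48, beside -0.08 over all rows tested.

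Among 14 kept rows of other NADP and malate enzymes none rose and 3 fell, beside 4.64% higher and 4.0% lower over all rows tested. The median log2 difference was -0.32, beside -0.08 over all rows. Before adjustment 2 rows were higher and 4 lower at p under 0.05 in limma, and both higher ones had passed the filter through the libraries after fat accumulation alone. Cytosolic 10-formyltetrahydrofolate dehydrogenase, a folate enzyme that makes NADPH, had 3.78 ± 2.05 FPKM after and 12.9 ± 3.76 before (SD, n = 3 each, -1.59, limma, adjusted p = 0.0440). NAD-dependent malic enzyme, which chiefly makes NADH in mitochondria, had 0.63 ± 0.426 FPKM after and 2.85 ± 0.646 before (-1.26, limma, adjusted p = 0.0484). The other row that fell, named after its values were seen, was one of the NAD kinase 2 rows, at 3.86 ± 1.01 after and 11.2 ± 2.47 before (-1.325, limma, adjusted p = 0.0348). The more abundant NAD kinase 2 row did not pass, at 10.45 ± 0.801 after and 14.2 ± 2.54 before (-0.40, limma, adjusted p = 0.283).

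On the side of sugar phosphates, 1 of 29 kept rows rose and none fell, with a median of 0.28 (limma; 5 higher and 2 lower before adjustment). A second glyceraldehyde-3-phosphate dehydrogenase row had passed the filter through the libraries after fat accumulation alone. Without it 1 of 28 rows rose, with a median of 0.27 (limma; 4 higher and 2 lower before adjustment). Neither count is a larger share than the 4.64% of all rows that were higher. The row that rose was ribokinase, which phosphorylates free ribose to ribose-5-phosphate. It had 87.3, 71.9 and 70.8 FPKM after and 21.5, 36.5 and 31.2 before (1.36, limma, adjusted p = 0.0219). No library before fat accumulation reached the lowest one after it.

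Enzymes of sterol and lipid synthesis, not all of which use NADPH, form a further list. Of its 13 kept rows 8 rose and none fell (limma, adjusted p under 0.05; 11 higher and 0 lower before adjustment), with a median log2 difference of 1.60. In this list 2 rows, both of squalene monooxygenase, had passed the filter through the libraries after fat accumulation alone and so had to differ. Without them 7 of 11 rows rose (limma; 9 higher and 0 lower before adjustment), with a median of 1.60, beside 4.64% of all rows higher. The rows that rose were those of sterol synthesis enzymes and of NADPH-cytochrome P450 reductase. Sterol synthesis genes had been seen to rise in an earlier reading of these data. Delta(24)-sterol reductase, which uses NADPH late in cholesterol synthesis, had 107, 102 and 110.4 FPKM after and 18.5, 18.4 and 13.7 before (2.60, limma, adjusted p = 0.00230). 3-Hydroxy-3-methylglutaryl-coenzyme A reductase, the rate-limiting enzyme of cholesterol synthesis, had 254, 274 and 263 FPKM after and 54.9, 73.5 and 55.0 before (2.10, limma, adjusted p = 0.00361). Neither row overlapped between the stages. Hydroxysteroid (17-beta) dehydrogenase 7, which in mammals reduces a ketone of the sterol ring, had 39.3 ± 9.04 FPKM after and 7.86 ± 2.06 before (SD, n = 3 each, 2.19, limma, adjusted p = 0.00947). Delta(14)-sterol reductase, a reductase of the sterol ring, had 52.3 ± 16.7 FPKM after and 14.2 ± 1.31 before (1.77, limma, adjusted p = 0.0136). Fatty acid synthase, which builds palmitate with NADPH, had a row that missed the filter and was not tested. Its libraries had 1.43, 0.37 and 0.36 FPKM after, and before fat accumulation it was listed at 0, 0.09 and 0.05.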

How the data were processed

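Liver RNA of 6 tadpole libraries was measured by poly-A selected, paired-end RNA-seq, per the labels' protocols. The authors deposited 1 matrix of FPKM for 121726 transcript clusters, of which 37708 carry a protein description, per the file headers. The labels and the header name no assembler, aligner or counting program. Fragment totals are unknown, so no counting interval is given.

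Member rows were matched where the first entry of the description contained the member's name, and list rows where it began with a listed name. The 40548 rows that reached 1 FPKM in 3 or more libraries were log2-transformed after adding 1 and compared by stage in limma 3.58.1 (R 4.3.3). The moderated variances followed a trend on the mean level, no covariate was used, and two-sided p-values were adjusted over all rows by Benjamini-Hochberg. Protein sums replaced the member rows in a second fit of the whole table. Exact permutation tests used scipy 1.17.1. Alternatives covered the pseudocount, the filter, the scaling, the variance model, library weights, a replicate block, leaving out each library and how rows were summed. The members and lists were chosen with earlier results of these data known. The lists of neighbouring enzymes were widened with other names of the same proteins, and cleared of receptors and inhibitors with like names, after the descriptions were seen.

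Every kept member row is accounted for. Neighbouring proteins are named by their most abundant row where it passed the threshold, at most 4 in a list and those of lowest p, and 5 set proteins are named whatever their result.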

Additional observations from a re-analysis of the deposited data

How the results depend on the processing

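The 3 rows past the threshold kept their direction in every alternative that could measure them. For the isomerase the filter had fixed that direction. No kept member passed with the replicate block (0 higher, the 3 at limma adjusted p of 0.0754, 0.0661 and 0.0906), and without a library in turn 0 to 2 rows and 0 to 2 protein sums were higher, against 3 and 2. Replicate numbers did not pair the samples (correlations of same-numbered deviations -0.00489, -0.0387 and -0.0876), and the block left 194 rows higher and 145 lower of all tested, against 1882 and 1620. No filter left 634 and 433, and leaving out a library 392 to 1184 higher and 299 to 917 lower. Equal hepatocyte marker sums, chosen after seeing the data, gave 1233 and 5948, moved the median of all rows from -0.08 to -0.42, and made 1 member, the transketolase row, lower (-0.95, adjusted p = 0.0177). It also turned 6-phosphogluconate dehydrogenase to -0.13, 6-phosphogluconolactonase to -0.15 and the transketolase sum to -0.11. With the filter at 5 FPKM the isomerase was not measured, and 1 sum passed. The transketolase-like row missed the threshold without a filter (adjusted p = 0.0725) and with quantile normalization (0.0521). Transaldolase ranged from -0.21 to 0.012 with a library left out, the positive value without after replicate 3. The transketolase sum passed only as its highest row (1.05, adjusted p = 0.0259). Depth is unknown, and levels near 1 FPKM are the least precise.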

Other observations

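A list of redox defence and related proteins, not all of which use NADPH, gave 2 increases and 1 decrease among 28 kept rows. Its median log2 difference was 0.12 (limma, adjusted p under 0.05 for the counts). Without 1 row that passed the filter through the libraries after fat accumulation alone, the median was 0.11 over 27 rows. The counts of increases and decreases, the same without that row, are near the shares over all rows, 4.64% higher and 4.0% lower. Thioredoxin reductase 3, which spends NADPH to reduce thioredoxin, had 25.7 ± 1.44 FPKM after and 6.83 ± 0.541 before (SD, n = 3 each, 1.77, limma, adjusted p = 0.00594). Dihydrofolate reductase, a folate enzyme rather than a redox defence protein, had 26.4 ± 5.28 FPKM after and 10.9 ± 2.71 before (1.21, limma, adjusted p = 0.0362). A second row of it had 6.52 ± 0.616 after and 7.84 ± 0.972 before (-0.23, limma, adjusted p = 0.537). Glutathione peroxidase 1 had 287 ± 52.3 FPKM after and 503 ± 60.4 before (-0.82, limma, adjusted p = 0.0437). Glutathione reductase, which regenerates glutathione with NADPH, had 12.9 ± 1.15 FPKM after and 14.01 ± 3.03 before, with overlapping stages (-0.09, limma, adjusted p = 0.832).

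Of 16 kept rows in a list of regulators of lipid synthesis genes 2 rose and 1 fell, with a median of 0.75, beside 4.64% higher and 4.0% lower over all rows. The list is broader than its title. Its rows matched as peroxisome proliferator-activated receptor include receptor alpha and a receptor gamma coactivator-related protein, which is not a receptor. With counts this small nothing is read from the list as a whole. Peroxisome proliferator-activated receptor gamma, a receptor that drives fat storage genes, had 10.7, 24.3 and 31.3 FPKM after and 4.22, 3.22 and 3.40 before (2.21, limma, adjusted p = 0.0235). The row for the carbohydrate-responsive element-binding protein, a glucose-sensing factor that drives lipid synthesis genes in mammals, had 1.77 ± 0.390 FPKM after and 6.32 ± 0.947 before (SD, n = 3 each, -1.40, limma, adjusted p = 0.0213). The other row that rose, peroxisome proliferator-activated receptor alpha at 10.2 ± 3.01 FPKM after and 2.55 ± 0.911 before (SD, n = 3 each, 1.66, limma, adjusted p = 0.0244), was named after its values were seen. Further kept rows of receptor alpha did not pass. They were at 7.21 FPKM after and 4.23 before (0.67, limma, adjusted p = 0.130) and at 2.20 and 1.16 (0.52, limma, adjusted p = 0.353).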
